A study of Mus musculus with 37 samples.

Results

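Keratins, genes of the cornified envelope and tissue kallikreins were followed in the hippocampus of mice that lost Kdm1a in forebrain neurons in adulthood. The set took every counted gene named Krt or Klk followed by a number, together with Evpl, Ppl, Lor, Ivl, Flg, Tchh, Cdsn, Tuft1, Alox12b, Aloxe3, Tgm1 and Tgm3. It came to 75 of 48795 counted genes: 26 type I keratins, 24 type II keratins, 13 kallikreins, 8 envelope and structural precursor genes, and 4 genes for lipoxygenases and transglutaminases. Of the 75 genes, 74 are annotated as protein coding, and Krt74 is annotated as a pseudogene. Kdm1a, also called LSD1, is a histone demethylase. The Kdm1a-ifKO mice carried floxed Kdm1a alleles (f/f, exons 5 and 6) and a tamoxifen-dependent Cre recombinase, creERT2, driven by the Camk2a promoter. The control mice were littermates without creERT2 that received tamoxifen as well. All were males on a C57BL/6J background, they were 8 weeks old when given tamoxifen, and the age at which these hippocampi were taken is not given in the sources used here. Polyadenylated RNA of the whole hippocampus was sequenced from 3 mice per genotype, 1 library per mouse. Cre acts only in principal neurons of the forebrain, whereas the RNA came from all hippocampal cells. A single ChIA-PET library, which records contacts between DNA sites bound by CTCF, came from sorted nuclei of Camk2a-positive hippocampal neurons of male mice with wild-type Kdm1a. By the study's methods such nuclei were isolated from mice with Camk2a-creERT2 and the nuclear reporter CAG-Sun1/sfGFP a month after tamoxifen, so these mice carried Cre, unlike the RNA-seq controls.

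Keratins are the intermediate filament proteins of epithelia, and each filament is built from pairs of an acidic type I and a basic type II keratin. As keratinocytes die at the skin surface they replace the plasma membrane with a cornified envelope, in which plakins, involucrin and loricrin are crosslinked by transglutaminases and coated with lipids that lipoxygenases help to attach, and kallikreins, a family of secreted serine proteases, later cut the junctions that hold the dead cells together. None of this barrier exists in the brain, although some kallikreins are made there, among them the neuronal protease neuropsin (Klk8) and the oligodendrocyte protease Klk6.

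Kdm1a itself was lower in every Kdm1a-ifKO library. Its counts were 1521, 1545 and 1481 in the controls and 764, 726 and 748 in the Kdm1a-ifKOs. The groups were far apart, with a log2 fold change of -1.07 ± 0.06 (SE) and an adjusted p of 6.24e-08 from edgeR, whose quasi-likelihood fit over all genes, adjusted by the Benjamini-Hochberg method, gave every adjusted p below. Control libraries held between 18985542 and 19160327 counts, and Kdm1a-ifKO libraries between 19370926 and 19469947. Levels are given in CPM (counts-per-million, after scaling between libraries) or in TPM (transcripts-per-million, which also divide by exon length). Errors of levels are SDs over 3 libraries, and errors of log2 fold changes are SEs. On the first principal component, with 50.0% of the variance, the genotypes were separate, and on the second, with 16.9%, control replicate 3 and Kdm1a-ifKO replicate 2 lay apart from the other 4 libraries. Markers of hippocampal neurons were abundant: Camk2a, a kinase of excitatory neurons, had the highest level per length of the 8 excitatory markers, 2471 TPM in controls.

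The members fell into 3 classes. Silent genes, with no count in any of the 6 libraries, numbered 13. Another 37 had counts but too few for the test, none with more than 48 over all libraries. The remaining 25 passed the low-count filter and were tested. Of these, 10 were called at an adjusted p under 0.05 (10 also by DESeq2, and 11 at an unadjusted p under 0.05), beside 1487 of all 16799 tested genes, 8.85%. Higher in Kdm1a-ifKOs were 9 members, beside 6.04% of all tested genes, and lower was 1, beside 2.82%. A log2 fold change over 1 together with the call was reached by 1 member, Cdsn, beside 1.36% of all tested genes. The groups did not overlap, with every Kdm1a-ifKO library above every control, for 9 members, beside 15.7% of all tested genes, and in the opposite direction for 2 members, Klk10 and Krt222, beside 14.4%. The median log2 fold change of the 25 tested members was 0.34, and that of all tested genes was -0.0034. The calls were unequal between roles. All 8 tested genes of the envelope, its precursors and its lipoxygenases were called higher. Of 11 tested keratins 1 was called higher, and of 6 tested kallikreins 1 was called lower. The other 5 tested kallikreins had positive log2 fold changes without a call, and the median over the 6 was 0.35.

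**Figure D1:**
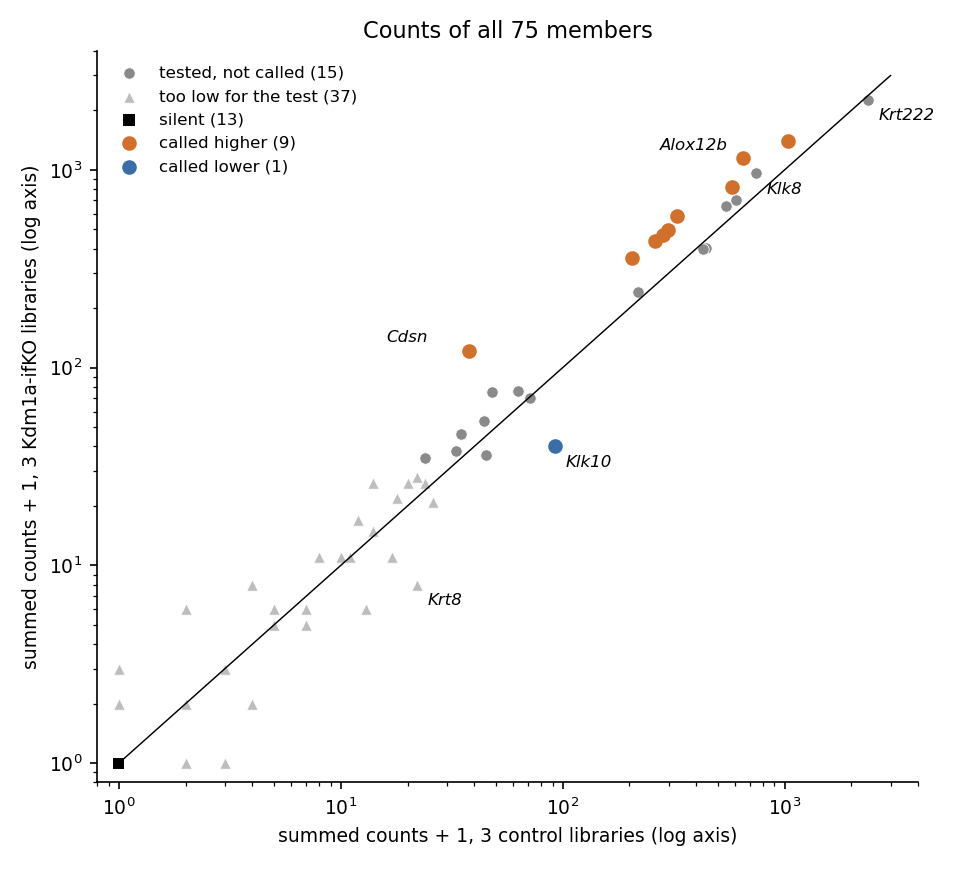
Each point is 1 of the 75 members, placed by its counts summed over the 3 control libraries (horizontal axis) and the 3 Kdm1a-ifKO libraries (vertical axis), each with 1 added and on a log axis; the line marks equal counts. The 13 silent genes share the black square at the lower left, the 37 triangles were too low for the test, and the 9 orange points above the line are the genes called higher, with Cdsn farthest from it.

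The plakins periplakin (Ppl) and envoplakin (Evpl) form the first scaffold of the envelope under the plasma membrane and tie it to desmosomes and keratin filaments. Ppl had 124, 110 and 93 counts in the controls and 188, 203 and 195 in the Kdm1a-ifKOs. The 3 Kdm1a-ifKO values were close to each other, and all exceeded the highest control. Its level went from 5.75 ± 0.744 to 9.99 ± 0.320 CPM, a log2 fold change of 0.80 ± 0.12 (SE) with an adjusted p of 0.00132. Evpl, its partner, had 86, 85 and 88 counts in the controls and 129, 169 and 139 in the Kdm1a-ifKOs. Here the controls were nearly equal and Kdm1a-ifKO replicate 2 was the highest. The rise was from 4.56 ± 0.145 to 7.45 ± 1.01 CPM (log2 fold change 0.71 ± 0.14, adjusted p 0.00706), so the pair rose by similar amounts from similar levels per length, 3.32 TPM for Ppl and 2.84 TPM for Evpl in controls. In bulk tissue, more transcripts per cell and more cells with the transcript cannot be told apart, nor can the reverse.

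Loricrin (Lor) is the bulk protein of the mature epidermal envelope. Its counts were 79, 113 and 89 in the controls and 153, 161 and 153 in the Kdm1a-ifKOs. Control replicate 2 was the highest control and still below each Kdm1a-ifKO. The level rose from 4.95 ± 0.912 to 7.97 ± 0.180 CPM, with a log2 fold change of 0.69 ± 0.14 and an adjusted p of 0.0102. Trichohyalin (Tchh) hardens the inner root sheath of the hair follicle by binding keratin filaments. It had 99, 92 and 106 counts in the controls and 171, 185 and 140 in the Kdm1a-ifKOs. All Kdm1a-ifKO values were higher, and replicate 3 was the nearest to the controls. The log2 fold change was 0.69 ± 0.14 and the adjusted p 0.00750. Involucrin (Ivl), an early crosslinked precursor, and filaggrin (Flg), which bundles keratins in the cornified layer, lie in the same region of chromosome 3 and had at most 1 count: Ivl had no count, and Flg had 1 count, in Kdm1a-ifKO replicate 2.

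The 250 bases before the RefSeq start sites (build GRCm38.p6) of Lor and Ivl are shown because these genes of the same region had the same pair of motifs and unequal counts. Capitals mark TATAAA and TGANTCA, the latter the letters bound by AP-1, both searched on both strands. The Lor run is chr3:92083143-92083392 and the Ivl run chr3:92573736-92573985, both given on the minus strand, 5′ to 3′.
Lor: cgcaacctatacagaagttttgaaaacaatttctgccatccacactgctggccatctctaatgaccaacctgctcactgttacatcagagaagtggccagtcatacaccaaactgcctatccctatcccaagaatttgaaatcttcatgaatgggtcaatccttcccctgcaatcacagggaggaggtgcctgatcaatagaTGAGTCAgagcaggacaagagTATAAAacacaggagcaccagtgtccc
Ivl: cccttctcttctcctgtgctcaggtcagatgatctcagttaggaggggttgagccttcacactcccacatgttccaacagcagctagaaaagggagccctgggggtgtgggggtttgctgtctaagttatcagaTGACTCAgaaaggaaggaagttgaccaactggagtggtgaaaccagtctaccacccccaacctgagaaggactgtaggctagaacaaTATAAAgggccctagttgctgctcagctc
In Lor the TATAAA match began 27 bases and the TGANTCA match 48 bases before the start, and in Ivl they began 29 and 116 bases before it. The corresponding window of Flg also held both motifs, 53 and 103 bases before its start. Among all 32851 windows of this length in the RefSeq table, 12.4% held TATAAA and 6.75% held TGANTCA. Of these 3 genes with both motifs, Lor was the only one with counts in every library.

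Corneodesmosin (Cdsn) is secreted onto the junctions between cornified cells, where kallikreins cut it during shedding. It had 12, 14 and 11 counts in the controls and 48, 37 and 36 in the Kdm1a-ifKOs. No control came near the lowest Kdm1a-ifKO value. Its log2 fold change was 1.65 ± 0.26, a 3.15-fold rise from 0.651 ± 0.0748 to 2.06 ± 0.349 CPM with an adjusted p of 0.00149, on few counts. This was the largest rise among the 25 tested members, from the lowest control level per length of the 10 called genes, 0.966 TPM. The 250 bases before its RefSeq start at the first base of the GENCODE gene, chr17:35551878-35552127 on the plus strand (GRCm38.p6), are shown as those of the member that rose most.
Cdsn: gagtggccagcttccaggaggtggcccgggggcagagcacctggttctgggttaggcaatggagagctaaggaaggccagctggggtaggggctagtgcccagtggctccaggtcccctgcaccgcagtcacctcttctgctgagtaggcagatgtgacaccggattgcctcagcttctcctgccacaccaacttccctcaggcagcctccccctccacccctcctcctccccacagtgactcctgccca
This run held neither TATAAA nor TGANTCA, so it has no capitals. Tuftelin (Tuft1), first described as a protein of forming tooth enamel, had 70, 75 and 60 counts in the controls and 115, 119 and 123 in the Kdm1a-ifKOs. The Kdm1a-ifKO values spread less than the distance between the groups. Tuft1 rose from 3.61 ± 0.360 to 6.09 ± 0.206 CPM, with a log2 fold change of 0.75 ± 0.15 and an adjusted p of 0.00602.

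Alox12b and Aloxe3 encode epidermal lipoxygenases that act in sequence, 12R-lipoxygenase and eLOX3, to oxidise ceramides, which helps to attach these to the envelope. Alox12b had 205, 219 and 225 counts in the controls and 367, 307 and 472 in the Kdm1a-ifKOs. The Kdm1a-ifKOs were all higher but spread widely, with replicate 3 the highest. Its level went from 11.4 ± 0.688 to 19.6 ± 4.37 CPM, a log2 fold change of 0.77 ± 0.15 with an adjusted p of 0.0111. Aloxe3 had 300, 394 and 338 counts in the controls and 467, 487 and 438 in the Kdm1a-ifKOs. The groups were separate, though control replicate 2 lay close to the lowest Kdm1a-ifKO. Its rise was smaller, with a log2 fold change of 0.39 ± 0.10 and an adjusted p of 0.0251. Aloxe3 lost its call without control replicate 1 (log2 fold change 0.29, adjusted p 0.0753), Kdm1a-ifKO replicate 1 (0.38, 0.0845) or Kdm1a-ifKO replicate 2 (0.35, 0.0654). The call was also lost without control replicate 3 and Kdm1a-ifKO replicate 2 together (0.36, 0.0625), a comparison chosen after seeing the data. The envelope crosslinking enzymes, Tgm1 with 17 control and 21 Kdm1a-ifKO counts and Tgm3 with 23 and 25, were too low for the test.

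**Figure D2:**
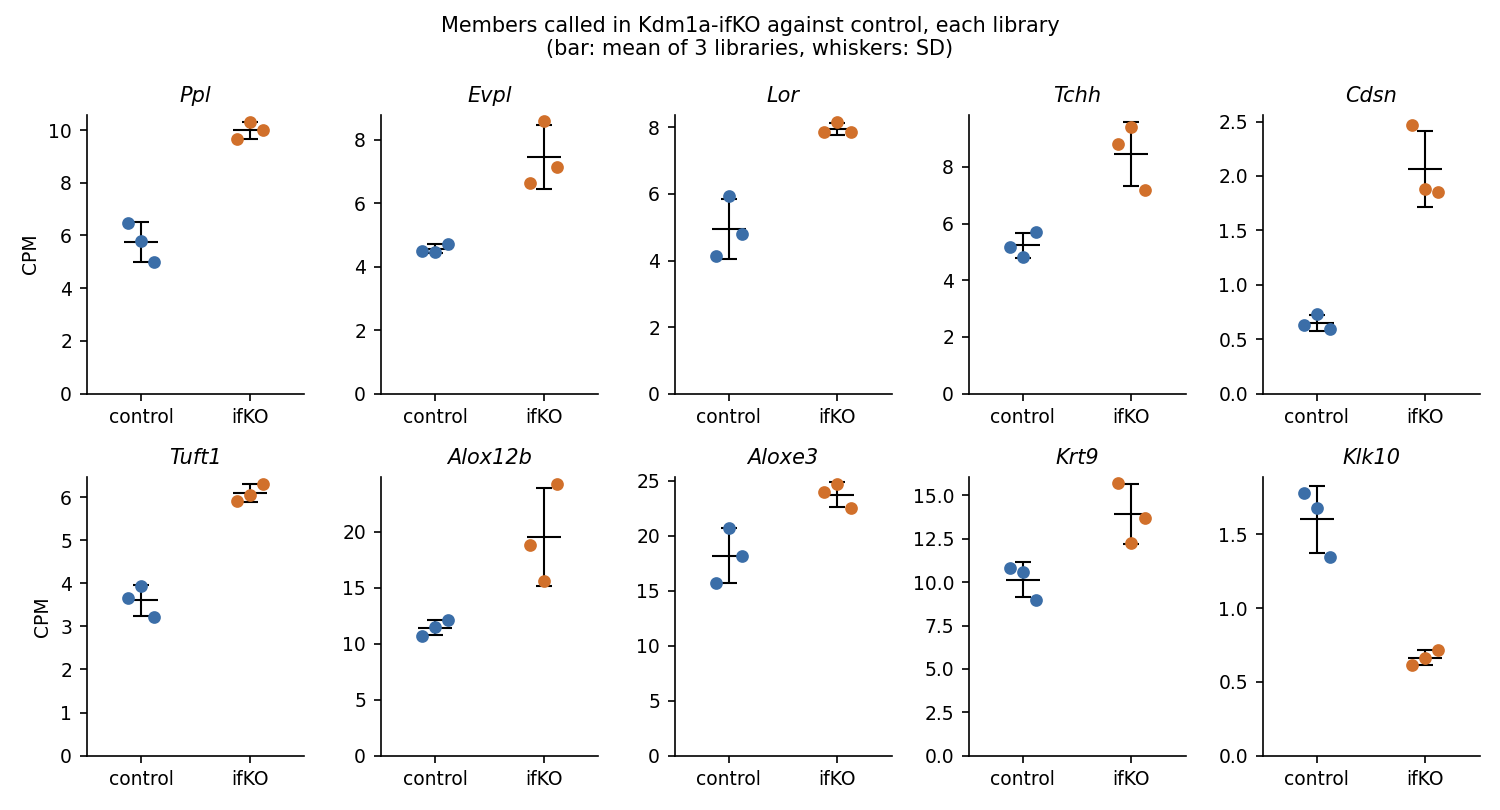
CPM of the 10 called members in each library, with controls in blue and Kdm1a-ifKOs in orange; the bar is the mean of 3 libraries, the whiskers are the SD, and each vertical axis starts at 0. In each panel the genotypes do not overlap, with Kdm1a-ifKOs above controls for 9 genes and below them for Klk10.

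Of the type I keratins, Krt9, the keratin of palm and sole epidermis, was the called gene. It had 207, 202 and 167 counts in the controls and 306, 242 and 267 in the Kdm1a-ifKOs. All Kdm1a-ifKO values lay above the controls, and replicate 2 was the nearest to them. Its log2 fold change was 0.46 ± 0.12, from 10.1 ± 1.01 to 13.9 ± 1.73 CPM, with an adjusted p of 0.0268. The call was lost without control replicate 2 (log2 fold change 0.48, adjusted p 0.0527), control replicate 3 (0.38, 0.0731), Kdm1a-ifKO replicate 1 (0.36, 0.124) or Kdm1a-ifKO replicate 3 (0.46, 0.0712).

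Krt222, a keratin-like gene at the edge of the type I cluster, was the most abundant member. It had 776, 817 and 785 counts in the controls and 749, 745 and 772 in the Kdm1a-ifKOs. After scaling the Kdm1a-ifKOs were all slightly lower, but the log2 fold change of -0.12 ± 0.06 was not called, with an adjusted p of 0.256. Krt10, which pairs with Krt1 in the upper epidermis, had 162, 136 and 144 counts in the controls and 144, 115 and 144 in the Kdm1a-ifKOs. Those ranges overlapped (log2 fold change -0.18, adjusted p 0.447, and -0.08 and -0.11 without Kdm1a-ifKO replicate 2 and control replicate 1, each left out alone), and Krt10 overlaps Gm11940 on the opposite strand, with 13 control and 8 Kdm1a-ifKO counts. Krt20, a keratin of intestinal epithelium, had 21, 18 and 23 control counts and 17, 38 and 20 Kdm1a-ifKO counts. Krt12, the corneal keratin, had 22, 16 and 32 control counts and 12, 36 and 21 Kdm1a-ifKO counts. In both genes Kdm1a-ifKO replicate 2 was the highest library and the groups overlapped. Krt12 overlaps A830036E02Rik on the opposite strand, which had between 540 and 660 counts in each library. Overlaps were taken from whole gene spans and not from exons. The strand setting of the counting is not given in the sources used here, so whether such pairs shared reads cannot be told. Krt15, a keratin of basal and stem cells in skin, was the sixth tested type I gene, with 43 control and 53 Kdm1a-ifKO counts in all, and was not called (adjusted p 0.746).

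Of the 5 tested type II keratins none was called by edgeR, none had an unadjusted p under 0.05, and DESeq2 also called 0. Krt2, a late keratin of the epidermis, had 163, 200 and 181 counts in the controls and 252, 201 and 201 in the Kdm1a-ifKOs. Replicate 1 stood above the rest, and after scaling the other Kdm1a-ifKOs lay within the range of the controls (log2 fold change 0.22, adjusted p 0.305, and 0.10 and 0.14 without Kdm1a-ifKO replicate 1 and control replicate 1, each left out alone). Krt77 had 197, 222 and 182 counts in the controls and 271, 243 and 187 in the Kdm1a-ifKOs. Krt73, a keratin of the inner root sheath, had 141, 156 and 130 control counts and 146, 122 and 131 Kdm1a-ifKO counts. Krt1, the partner of Krt10, had 75, 83 and 60 control counts and 82, 91 and 67 Kdm1a-ifKO counts. For these 3 genes the groups overlapped, with adjusted p values from 0.454 to 0.793. Krt5, the type II keratin of basal keratinocytes, had 44 control and 35 Kdm1a-ifKO counts in all (adjusted p 0.572).

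The median log2 fold change was 0.08 over the 6 tested type I and 0.09 over the 5 tested type II keratins, against 0.73 over the 6 tested envelope and precursor genes. The summed CPM of the 50 keratins was 97.3, 102 and 96.4 in the controls and 106, 97.2 and 98.4 in the Kdm1a-ifKOs. These sums overlapped, whereas those of the 12 envelope genes, lipoxygenases and transglutaminases did not: 52.0, 58.3 and 54.9 CPM in the controls and 84.9, 85.5 and 87.9 CPM in the Kdm1a-ifKOs. The latter sums come almost wholly from the 8 genes called higher, so they restate those calls.

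**Figure D3:**
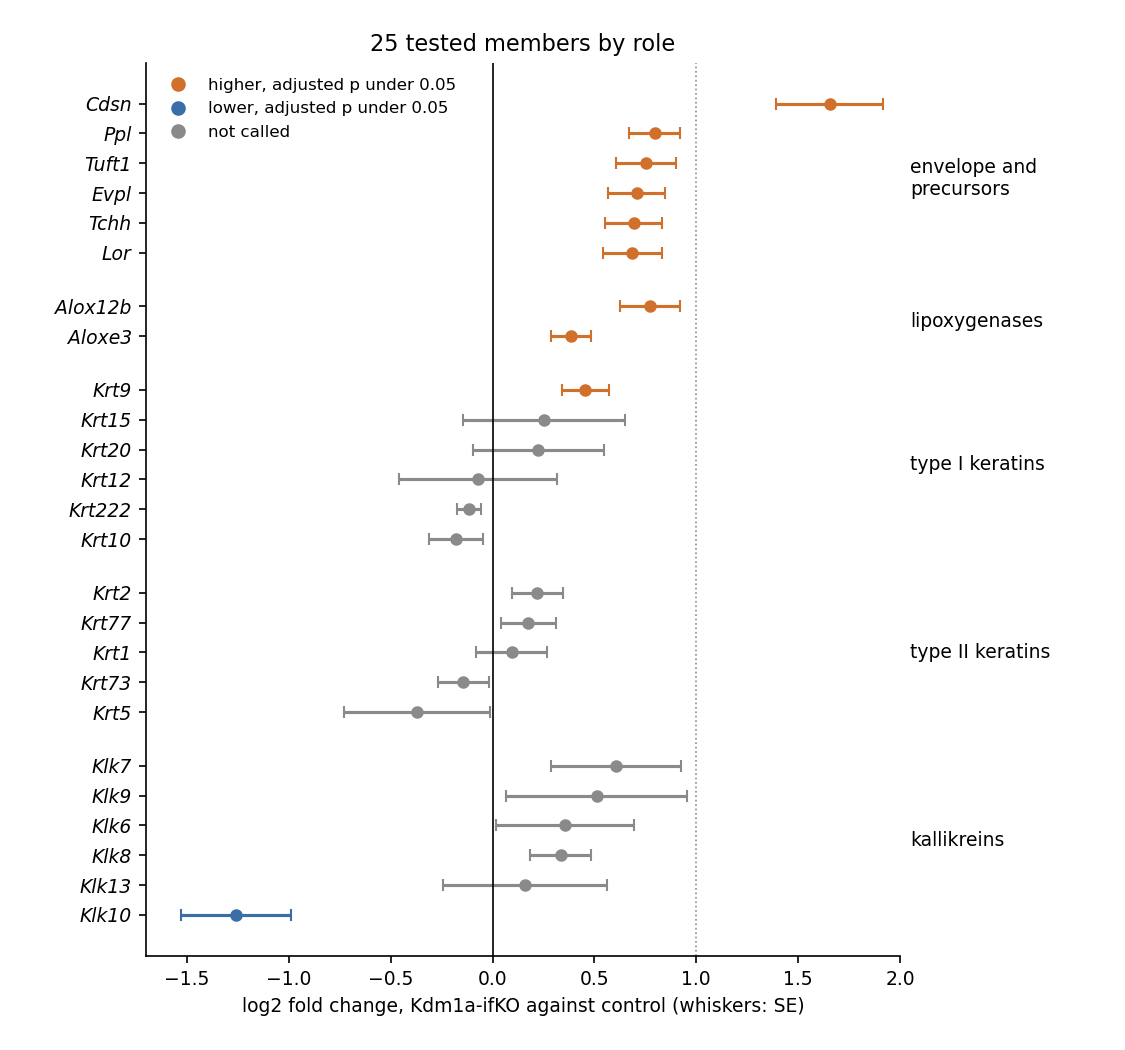
Log2 fold change of the 25 tested members in Kdm1a-ifKO against control, grouped by role; whiskers are the SE, orange and blue mark genes called higher and lower, grey marks genes that were not called, and the dotted line is a log2 fold change of 1. The 8 genes of the upper groups lie to the right of 0, while 10 of the 11 keratins are grey.

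The keratins of simple epithelia and of the basal epidermis were scarce. Krt8, which pairs with Krt18 in simple epithelia, had 7, 6 and 8 counts in the controls and 3, 2 and 2 in the Kdm1a-ifKOs. The groups did not overlap, at counts too low for the test, and in the fit without a filter its adjusted p was 0.157. On the opposite strand Krt8 overlaps Gm36026, and Krt80 overlaps Gm35853 and Mir1941. Mir1941 had 0 counts in every library, and no counts were at hand for Gm36026 and Gm35853. Whether reads were shared there cannot be told. Krt18 showed no such order, with 9, 5 and 7 control counts and 10, 7 and 10 Kdm1a-ifKO counts. Krt19, another simple epithelial keratin, had 11 control and 16 Kdm1a-ifKO counts in all. Krt14, the partner of Krt5 in basal keratinocytes, had 1 count in the controls and 0 in the Kdm1a-ifKOs. Krt79 and Krt80 had the most Kdm1a-ifKO counts of the type II keratins below the filter, 25 each, beside 13 and 19 in the controls. Their counts were unevenly spread: 15 of those of Krt79 came from Kdm1a-ifKO replicate 1, and 17 of those of Krt80 from Kdm1a-ifKO replicate 2.

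Krt25, Krt26 and Krt28, keratins of the inner root sheath, had 6, 25 and 13 control counts and 4, 20 and 14 Kdm1a-ifKO counts. Krt75 had 12 and 5, Krt87 had 16 and 10, and Krt90 had 10 and 10. Krt17, induced in injured skin, had 4 and 5 counts, and Krt23 had 3 and 7. These are low members with at least 5 counts summed over a genotype, and 18 of the 37 had fewer than 5 in both. Without a filter, 0 of the 37 low members were called by edgeR, the lowest adjusted p being the 0.157 of Krt8, and 1 had an unadjusted p under 0.05.

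Silent were Krt13, Krt34, Krt39 and Krt40 of the type I keratins, Krt4, Krt71, Krt72, Krt74, Krt76, Krt86 and Krt88 of the type II keratins, and Klk15 and Ivl. These include the mucosal pair Krt4 and Krt13 and several hair keratins. A count of 0 over the 3 Kdm1a-ifKO libraries, 58286616 counts in all, allows a level of up to 0.0515 CPM, and over the 3 controls, 57234867 counts, up to 0.0524 CPM, with 3 counts as the floor. These limits cover counting error only. Of all 48795 counted genes 20014 were silent by the same rule.

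Klk10 was the called kallikrein and fell. It had 34, 32 and 25 counts in the controls and 12, 13 and 14 in the Kdm1a-ifKOs. The highest Kdm1a-ifKO was well under the lowest control. Its level went from 1.60 ± 0.228 to 0.665 ± 0.0511 CPM, a log2 fold change of -1.26 ± 0.27 with an adjusted p of 0.0107, on few counts. Klk10 overlaps the antisense gene 2310002F09Rik, whose counts were 87, 88 and 98 in the controls and 126, 98 and 133 in the Kdm1a-ifKOs, with an adjusted p of 0.199. The overlap is one of whole gene spans. Whether the pair shared reads cannot be told without the exon overlap and the strand setting. The direction of the antisense gene's difference was opposite to that of Klk10.

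Klk8, neuropsin, a protease of hippocampal neurons that acts in synaptic plasticity, was the most abundant kallikrein. Its counts were 278, 219 and 245 in the controls and 306, 265 and 395 in the Kdm1a-ifKOs. The Kdm1a-ifKOs reached higher, mainly replicate 3, but replicate 2 lay within the range of the controls. The log2 fold change of 0.34 ± 0.15 was not called, with an adjusted p of 0.204, but it was called without Kdm1a-ifKO replicate 2 (adjusted p 0.0489) and without a filter on low counts (0.0126), while without Kdm1a-ifKO replicate 3 its log2 fold change was 0.16 (adjusted p 0.540). The 5′ ends of Klk8 and of 2310002F09Rik overlap on opposite strands, so its counts carry the same limit. Klk7, which cuts corneodesmosin in skin, had 23, 12 and 12 control counts and 29, 20 and 25 Kdm1a-ifKO counts. Control replicate 1 fell among the Kdm1a-ifKOs, and the adjusted p was 0.266.

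The other tested kallikreins were Klk6, with 34 control and 45 Kdm1a-ifKO counts in all, Klk9, with 23 and 34, and Klk13, with 32 and 37. None of these 3 was called, with adjusted p values from 0.520 to 0.851. Below the filter, Klk1, the tissue kallikrein that frees kinins, had 7 control and 10 Kdm1a-ifKO counts, Klk11 had 9 and 10, Klk12 had 6 and 5, and Klk14 had 1 and 5. Klk5, which activates Klk7 in skin, had 2 and 0, and Klk4 had 1 and 1. Klk8 to Klk14 all overlap 2310002F09Rik, whereas Klk6 and Klk7 do not, and Klk1 overlaps Gm10109, with 17 control and 36 Kdm1a-ifKO counts, on the opposite strand. The Klk1b genes, mouse paralogs of Klk1 left out by the naming rule, were 13, with 8 silent and no more than 3 counts summed over all of them in any library, and none was tested.

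Compared per length in controls, over the 20 members with at least 1 CPM in either genotype, Krt222 stood highest with 50.6 ± 1.30 TPM, then Klk8 with 33.7 ± 4.00 TPM and Alox12b with 18.7 ± 1.05 TPM. The libraries of these 3 genes did not overlap with those of the gene next below. Krt9, Krt10, Krt2, Krt77 and Krt73 followed between 15.6 and 13.8 TPM, with overlapping libraries from each to the next, and so did Aloxe3 with 11.3 and Lor with 11.1 TPM. All other members of this group had a mean under 5 TPM, from Klk10 with 4.63 TPM to Cdsn with 0.966 TPM.

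Other genes of the barrier pathway were read from lists. Of 37 other cornified envelope genes (small proline-rich and late envelope proteins, S100 proteins and others), 17 were silent, among them all 7 of the listed Sprr genes. The 10 tested gave 0 calls by edgeR and 0 by DESeq2, with 1 at an unadjusted p under 0.05 and a median log2 fold change of 0.20. The most abundant was S100a16, a calcium-binding protein, with 115 TPM in controls. Its counts of 913, 965 and 791 in the controls and 1098, 1109 and 1014 in the Kdm1a-ifKOs did not overlap (log2 fold change 0.23, adjusted p 0.0662). Of 22 other lipid barrier genes 14 were tested. The called gene was Elovl4, which elongates very long fatty acids in skin and brain, with a log2 fold change of -0.29 ± 0.06 and an adjusted p of 0.0116, and the most abundant was the sphingomyelinase Smpd1, with 115 TPM.

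Of 24 epithelial transcription factors 10 were tested, with 0 called by edgeR or DESeq2, 0 at an unadjusted p under 0.05 and a median log2 fold change of 0.19. Grhl1, a regulator of desmosomal genes, was the most abundant with 29.1 TPM. Trp63, the master regulator of stratified epithelia, had 48, 40 and 40 control counts and 32, 29 and 42 Kdm1a-ifKO counts, which overlapped. Of 17 matched desmosome and keratin-linker genes 13 were tested, with 2 called by DESeq2, 3 at an unadjusted p under 0.05 and 1 called by edgeR. That gene was the plakophilin Pkp1, with 2, 0 and 2 counts in the controls and 17, 21 and 14 in the Kdm1a-ifKOs, an adjusted p of 0.00177 and a log2 fold change of 3.54 that rests on a control level near 0. Pkp4 was the most abundant of that list, with 213 TPM.

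Genes that curb, activate or are cut by kallikreins formed another list. Of these 27 inhibitors, activators and targets 8 were tested and 2 were called, both of them transmembrane inhibitors of serine proteases. Spint1 had 39, 52 and 53 counts in the controls and 635, 656 and 683 in the Kdm1a-ifKOs, a log2 fold change of 3.73 ± 0.11 with an adjusted p of 1.52e-10. Spint2 had 223, 266 and 204 counts in the controls and 474, 541 and 466 in the Kdm1a-ifKOs, a log2 fold change of 1.05 ± 0.10 with an adjusted p of 1.61e-05. In both genes the genotypes were separate by more than their spread. The most abundant of the list was the plasminogen activator Plat, with 29.2 TPM.

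The other intermediate filament genes, relatives of the keratins, were all 16 tested and 4 were called. Peripherin (Prph), a filament of peripheral neurons, had 30, 24 and 19 counts in the controls and 707, 805 and 710 in the Kdm1a-ifKOs, a log2 fold change of 4.87 ± 0.13 with an adjusted p of 5.99e-11. The lens filament gene Bfsp1 had a log2 fold change of 2.29 ± 0.39 on 16 control and 82 Kdm1a-ifKO counts. Synemin (Synm) rose with 0.39 ± 0.07, and the neurofilament Nefl, the most abundant of the list with 485 TPM, fell with -0.26 ± 0.05. The list as a whole had a median log2 fold change of 0.12.

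Marker genes of 10 cell types, 8 genes each, were read alongside. The epidermal and simple epithelial markers were 4 tested and 0 called by edgeR, with 1 at an unadjusted p under 0.05 and 1 called by DESeq2. Their summed level was 64.8, 55.1 and 72.3 CPM in the controls and 81.3, 79.4 and 74.9 CPM in the Kdm1a-ifKOs, every one above the highest control. Most of it was desmoplakin (Dsp), with 23.5 TPM in controls, a log2 fold change of 0.31 and an adjusted p of 0.0576. None of the 8 was at 0 in all libraries, but the epithelial splicing regulator Esrp1 had at most 4 counts in a library, and E-cadherin (Cdh1) had 13 in control replicate 3 and 34 in Kdm1a-ifKO replicate 2 and at most 6 elsewhere. The part of these cells in the rise of the envelope genes was not tested.

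The markers of meninges and fibroblasts summed to 115, 115 and 129 CPM in the controls and 110, 235 and 79.9 CPM in the Kdm1a-ifKOs, so that Kdm1a-ifKO replicate 2 stood above the rest. None of its 8 tested genes was called by edgeR, 1 was by DESeq2, and 2 had an unadjusted p under 0.05. Of the 8, 7 had a positive log2 fold change, with a median of 0.52, and their part in the envelope results was not tested. Dcn was the most abundant, with 39.0 TPM. Without Kdm1a-ifKO replicate 2, Ppl, Evpl, Lor, Tchh, Cdsn, Tuft1, Alox12b, Krt9 and Klk10 kept their call and Aloxe3 lost it, with a log2 fold change of 0.35 in place of 0.39. Choroid plexus markers summed to 65.6, 39.4 and 42.5 CPM in the controls and 70.0, 68.8 and 77.0 CPM in the Kdm1a-ifKOs, which did not overlap, and their part in the results on the envelope genes was not tested. Of 7 tested, 3 had a positive log2 fold change, with a median of -0.03. Klotho (Kl), with the most counts of the list, was the called gene, with a log2 fold change of 1.28 and an adjusted p of 1.32e-07, while the secreted carrier Ttr, the most abundant with 55.6 TPM, had 611, 204 and 131 control counts and 64, 123 and 159 Kdm1a-ifKO counts. The ependymal markers gave 0 calls of 7 by either tool, with 1 at an unadjusted p under 0.05, and Tmem212 was their most abundant gene with 15.1 TPM.

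In the glial lists, 3 of 8 microglial markers were called higher, Cx3cr1, Tmem119 and Csf1r, with log2 fold changes of 0.27, 0.42 and 0.33. DESeq2 called 5, and all 8 had a positive log2 fold change (median 0.33) and an unadjusted p under 0.05. Their summed level was 361, 342 and 370 CPM in the controls and 390, 447 and 499 CPM in the Kdm1a-ifKOs, and C1qa was the most abundant with 152 TPM. Astrocyte markers gave 3 of 8 called higher, Slc1a3, Aldoc and S100b, with log2 fold changes of 0.22, 0.20 and 0.26 (4 by DESeq2 and 4 at an unadjusted p under 0.05, 8 positive), and Aldoc the most abundant with 1051 TPM. Their sums were 5656, 5475 and 6089 CPM in the controls and 6118, 6307 and 6439 CPM in the Kdm1a-ifKOs. Both sets of sums were higher in every Kdm1a-ifKO than in any control, and their part in the envelope results was not tested. The oligodendrocyte and endothelial markers gave 0 calls of 8 each by edgeR and by DESeq2, and 0 at an unadjusted p under 0.05, and Cldn5 was the most abundant endothelial marker, with 92.4 TPM. Of the neuronal markers, the excitatory marker Neurod6 fell, with a log2 fold change of -0.36, and Vip and Npy fell among 8 interneuron markers, with -0.46 and -0.31. The interneuron markers summed to 944, 990 and 933 CPM in the controls and 913, 894 and 877 CPM in the Kdm1a-ifKOs, every one below the lowest control. Their median log2 fold change was -0.18, with 1 of 8 positive, and their part in the envelope results was not tested. Sst was the most abundant interneuron marker, with 1076 TPM.

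Most members lie in dense gene clusters (GENCODE M21, GRCm38). The type I cluster, chr11:99232761-100269871, held 25 members among 88 counted genes, of which 58 were silent, 8 were tested and Krt9 alone was called. The type II cluster, chr15:101347444-102032027, held 25 members, the type I gene Krt18 included, among 37 counted genes, with 5 tested and 0 called. The kallikrein cluster, chr7:43690418-44229618, held all 13 kallikreins among 59 counted genes, with 8 tested and Klk10 alone called. From Lor to Tuft1, chr3:92080271-94658872, a stretch that takes in much of the epidermal differentiation complex, 122 of 159 counted genes were silent and 21 were tested. The called genes there were Lor, Tchh and Tuft1. The envelope calls were thus spread over the genome, on chromosomes 3, 11, 16 and 17, with Ppl at chr16:5086291-5132421, Evpl at chr11:116220559-116238077 and Cdsn at chr17:35552128-35557180.

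The genes around the called members, taken by position after the members' values were seen, were described in the same way. Of 18 nearest tested neighbours that were not themselves called members, 1 was called, beside 8.85% of all tested genes, and their median log2 fold change was 0.07. Ubn1, the nearest gene to Ppl, had a log2 fold change of 0.09 with an adjusted p of 0.299. Around Evpl, Cdk3-ps and Srp68 had 0.22 and -0.04, and around Cdsn, Cchcr1 and Vars2 had -0.18 and 0.03, none of them called. The called gene within 100 kb of the start of Evpl was the mitochondrial ribosomal gene Mrpl38, with a log2 fold change of 0.24. No gene was tested within 100 kb of Lor. At the lipoxygenase locus on chromosome 11, of 10 tested genes with a start within 100 kb of that of Alox12b, 4 were called, all higher. Besides Aloxe3 these were Hes7, a transcription factor of the somite clock, with 15, 18 and 15 control counts and 44, 28 and 32 Kdm1a-ifKO counts (adjusted p 0.0274), the guanylate cyclase Gucy2e with a log2 fold change of 0.70 (adjusted p 0.00184), and the lysosome-positioning subunit Borcs6 with 0.67 (adjusted p 6.2e-05). Their direction was that of the lipoxygenases, and Alox8, the next lipoxygenase along, was not called (log2 fold change 0.18, adjusted p 0.364).

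**Figure D4:**
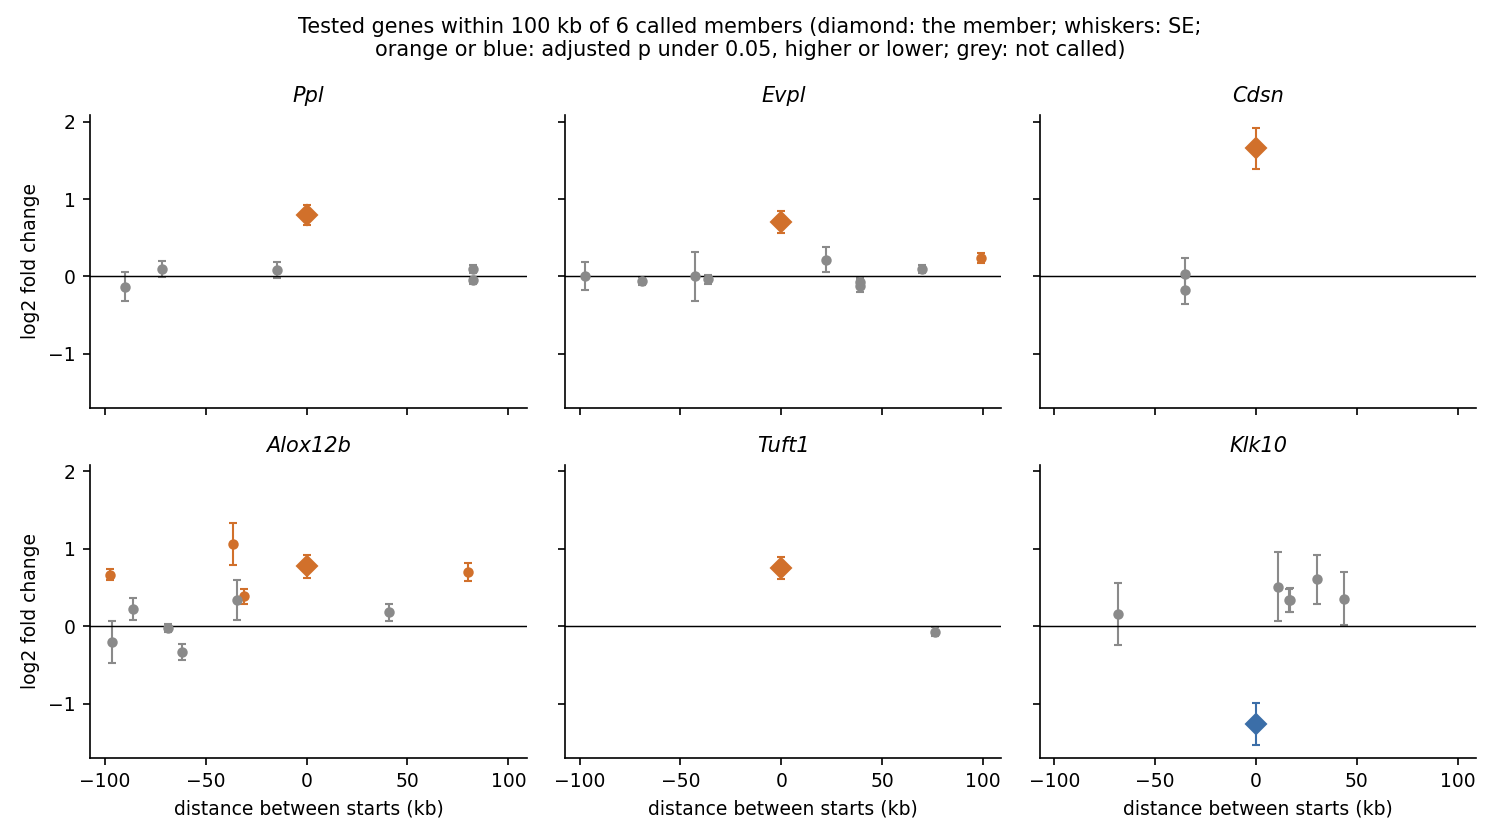
Log2 fold change of tested genes whose start lies within 100 kb of the start of a called member, against the distance in kb along the member's direction of transcription, for 6 members; diamonds are the members, whiskers the SE, and colours mark calls. Around Alox12b 4 other genes are orange, around Evpl Mrpl38 is, and around Ppl, Cdsn, Tuft1 and Klk10 none is coloured.

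CTCF loops in neurons of these reporter mice were read around the same genes, each loop with a count of paired-end tags (PETs) and with 1 library and no comparison between genotypes. Of the 27786 loops, 99 had an anchor within 10 kb of a member, and 30 of 75 members had such a loop. By class these were 13 of 25 tested members (52.0%), 13 of 37 low members (35.1%) and 4 of 13 silent members (30.8%). Over all counted genes on the chromosomes with loops, the share was 57.0% for tested and 13.5% for silent genes. Of the 10 called members 8 had a loop, from 1 at Tchh and Tuft1 to 11 at Cdsn, while Ppl and Lor had none. Aloxe3 had 9, the strongest with 39 PETs, and Klk10 shared its 5 loops with Klk8, Klk9 and Klk11.

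Of the loops near members, the strongest lay at the type II keratin cluster. With 203 PETs, against a median of 5 and a maximum of 1242 over all loops, it joined chr15:101982564-101993802 to chr15:102059962-102073793 and enclosed the low pair Krt8 and Krt18. The silent genes Krt72 and Krt74 lay near 9 loops, up to 101 PETs. In the type I cluster the strongest loop, 150 PETs, joined chr11:100164782-100175622 to chr11:100279924-100283494. It enclosed the called gene Krt9 together with Krt14, Krt16, Krt17 and Krt42, which had at most 9 counts each over the 6 libraries. The kallikrein cluster had weaker loops, with 15 PETs at most, in a loop that spanned 214 kb and took in 11 of the 13 kallikreins.

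RefSeq start sites were matched for 56 of the 75 members, with 61 windows of 250 bases before the start. TATAAA was found in 21 of these windows (34.4%, against 12.4% of all windows), in 7 of the 10 windows of silent members, and in 1 of the 7 windows of called members, that of Lor. TGANTCA was found in 5 (8.20%, against 6.75%), in Lor, Ivl, Flg and both windows of Krt13, of which Ivl and Krt13 are silent. GGGCGG, the letters of a GC box, was found in 8 member windows (13.1%, against 32.7%), and Alox12b, with 3 matches and 11 CG dinucleotides, was the called gene that held it. All motifs were searched on both strands, and the matches marked in the printed runs did not overlap. These matches describe the letters of the windows and not the binding of a factor.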

How the data were processed

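RNA-seq values were raw read counts per Ensembl gene deposited by the authors, who trimmed single-end polyadenylated reads with cutadapt 1.18, aligned them with HISAT2 2.1.0 to GRCm38 and counted them with HTSeq 0.11.1; the strand setting is not given in the sources used here. CTCF loops were deposited with PET counts of at least 3. Symbols came from GENCODE M21, which matched 48435 of 48795 identifiers. Groups of 3 libraries followed the labels. Genes passing filterByExpr were fitted with edgeR 4.0.16 (TMM, robust quasi-likelihood fit with a term for genotype, R 4.3.3), after a test of the code on simulated counts; DESeq2 1.42.0 was an alternative. TPM used summed exon length. The members and lists were chosen with earlier results of these data known. Counts per library are given for called members and for members of at least 1 CPM in a genotype; low members with at least 5 counts in a genotype are named, and in other lists the called genes and the most abundant gene. Genes named beyond that were chosen after their values were seen. Eppk1, 1 listed gene, was not matched. Other assays of the series were not analysed here, and some marker gene results are not reported here.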

Additional observations from a re-analysis of the deposited data

How the results depend on the processing

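Under 13 alternatives the number of members called stayed between 8 and 11 (10 as reported), and Ppl, Evpl, Lor, Tchh, Cdsn, Tuft1, Alox12b and Klk10 were called in every fit; Aloxe3, Krt9 and Klk8 changed as given above. Of 324 values of single members, 304 kept direction and call, 8 lost the call, 2 gained it and 10 changed sign, all of the latter in genes that were not called with or without the change. With 1 library left out, these log2 fold changes ran from -0.076 (without control replicate 2) to 0.59 for Klk13, from -0.54 to 0.24 (without control replicate 3) for Krt12, which was also positive without Kdm1a-ifKO replicate 1, from -0.20 (without Kdm1a-ifKO replicate 2) to 0.44 for Krt20, from -0.36 (without Kdm1a-ifKO replicate 3) to 0.50 for Krt15, and from -0.014 (without control replicate 3) to 0.20 for Krt1, which was also negative without Kdm1a-ifKO replicate 2. Without control replicate 3 and Kdm1a-ifKO replicate 2 together, chosen after seeing the data, they were -0.024 for Klk9, -0.10 for Krt20 and -0.11 for Krt1. The cause was not tested. Over all genes, 1487 calls became 2537 without a filter on low counts, with 1090 lower in place of 473. Leaving out 1 library gave 783 to 1460 calls, 646 to 876 of them higher and 137 to 584 lower, with the fewest without Kdm1a-ifKO replicate 3, and the cause was not tested. The labels do not say whether the replicate numbers pair the mice. Deviations of same-numbered libraries correlated between -0.148 and -0.0326, and no control library correlated best with the Kdm1a-ifKO library of its own number. Deviations within groups of 3 libraries cannot settle this. With the number as a replicate block the 10 members were called and 249 genes were lower. The loops near members, 99, became 29 for anchors on the gene itself, 195 within 50 kb, 52 with at least 5 PETs and 26 with at least 10 PETs, by construction. Depth limits the genes under the filter, where a few counts decide any ratio.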
